A study of Homo sapiens with 16 samples.

Results

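Expression of 7 genes of steroid receptor biology was followed through an estrogen time course: *NR3C1*, *NR3C2* and *VDR*, which encode the glucocorticoid, mineralocorticoid and vitamin D receptors, and *FKBP4*, *FKBP5*, *PTGES3* and *PPID*, which encode receptor cochaperones. They were chosen by name, 7 of the 26364 genes in the count tables, and all 7 were found in the table of each cell line. The members and the gene lists below were chosen with earlier results of these data known. Their counts beside the shares of all genes are therefore a description and no test. All 7 passed the filter on low counts in both lines, which left 15787 genes tested in Ishikawa and 15594 in T-47D.

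Steroid receptors are ligand-activated transcription factors. Newly made glucocorticoid and mineralocorticoid receptors are handed from the HSP70 chaperone to HSP90, which holds them in a form that can bind hormone. The HSP90 complex is closed and stabilized by p23, the product of *PTGES3*, and carries one of several cochaperones that dock through tetratricopeptide repeats: FKBP52 (*FKBP4*), FKBP51 (*FKBP5*) or the cyclophilin Cyp40 (*PPID*). FKBP52 raises the hormone response of glucocorticoid and progesterone receptors, whereas FKBP51 lowers hormone binding by the glucocorticoid receptor and is itself a well-known target gene of that receptor. The vitamin D receptor instead sits largely in the nucleus and binds DNA as a heterodimer with a retinoid X receptor.

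Bulk poly(A) RNA-seq was made from the human cell lines Ishikawa (endometrioid adenocarcinoma) and T-47D (ductal carcinoma of the breast). All groups shared hormone deprivation in phenol-red-free medium with charcoal-stripped serum, which is low in steroids, for 3 days by the sample labels, whereas the study's methods give a longer period. Cells then received 10 nM 17β-estradiol (E2) for 0, 2, 4 or 8 h, where 0 h was vehicle, with 2 libraries per group and 16 libraries in all. No ligand of the glucocorticoid, mineralocorticoid or vitamin D receptor is named among the additions, each line is a single established line, and the labels do not say whether the 2 libraries of a group came from separate cultures, so p-values measure only the spread between these libraries.

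Total counts ran from 41177912 to 58918642 in Ishikawa libraries and from 41223813 to 64148903 in T-47D libraries, and counts of the 7 genes ran from 273 to 61754 per library. The lines carried their labelled markers: *GATA3* lay between 990 and 1204 CPM, counts scaled to the library's total, in T-47D and at 0.0913 or less in Ishikawa, whereas *PAX8* lay between 194 and 328 CPM in Ishikawa and at 0.0485 or less in T-47D. Of the leukocyte markers, *PTPRC* and *CD3E* did not exceed 0.146 CPM and *CD68* lay between 1.56 and 3.64 CPM over both lines. Of the endothelial markers, *PECAM1* and *CDH5* did not exceed 0.136 CPM, and *VWF* lay between 5.16 and 8.64 CPM in Ishikawa and at 0.171 or less in T-47D. Of 6 fibroblast markers, *COL1A1* lay between 153 and 277 CPM in Ishikawa and between 70.3 and 90.4 in T-47D, and the other 5 did not exceed 8.10 CPM. The part of these genes' sources in the results was not tested. In Ishikawa cells the 4-h and 8-h libraries were not separated by their labels: over all genes tested, the root mean square log2 difference was 0.391 between both 4-h libraries and 0.329 between the second 4-h and the first 8-h library. Libraries with E2 in T-47D were not fully separated either. There it was 0.337 between both 2-h libraries and 0.327 between the first 2-h and the first 4-h library. Both 8-h libraries of T-47D differed by 0.332, and the first 4-h and second 8-h library by 0.3295. The 4-h pair of T-47D differed by 0.2975.

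At 0 h *PTGES3* and *FKBP4* were the most abundant members and *NR3C2* was the scarcest in both lines. Levels are compared between genes as CPM per kilobase of exon. In Ishikawa cells the order of the mean levels was *PTGES3* at 189 CPM per kilobase, *FKBP4* at 71.1, *PPID* at 21.7, *NR3C1* at 7.16, *FKBP5* at 5.81, *VDR* at 3.13 and *NR3C2* at 2.91. No neighbours in that order overlapped between libraries, but *FKBP5* reached 6.17 in its higher library and *NR3C1* 6.55 in its lower, and *VDR* stood at 3.13 in both against 2.87 and 2.96 for *NR3C2*.

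In T-47D cells the order was *PTGES3* at 133 CPM per kilobase, *FKBP4* at 97.5, *VDR* at 29.9, *FKBP5* at 16.6, *PPID* at 12.2, *NR3C1* at 5.27 and *NR3C2* at 1.22, again with no overlap between neighbours. *VDR* thus moved from the sixth place to the third between the lines. On the same scale the estrogen receptor gene *ESR1* stood at 17.1 CPM per kilobase in Ishikawa and 12.3 in T-47D, and *PGR* (progesterone receptor) at 0.0783 and 44.8.

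**Figure D1:**
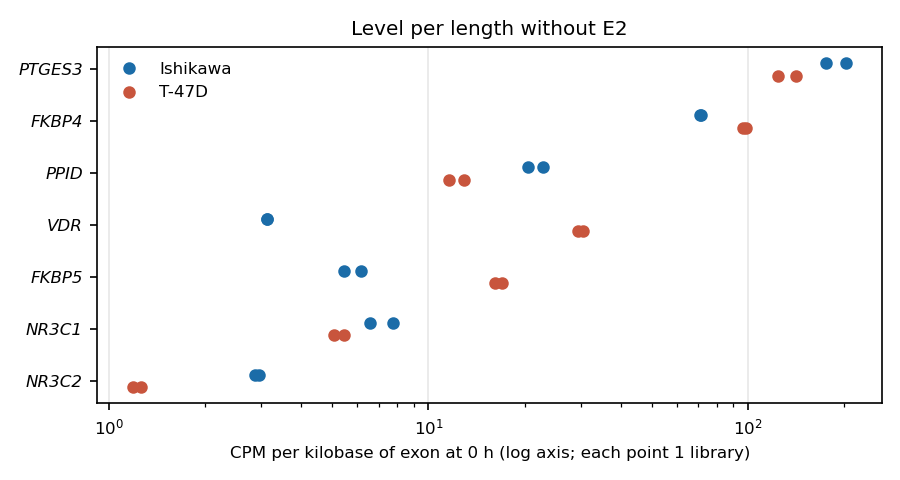
Level of each gene without E2, in CPM per kilobase of exon on a log axis, with 1 point for each 0-h library and the lines in separate colors. *VDR* and *FKBP5* sit to the right in T-47D (29.9 and 16.6 against 3.13 and 5.81), whereas *NR3C2*, *NR3C1*, *PPID* and *PTGES3* sit to the right in Ishikawa.

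All 7 genes differed between the lines at 0 h by the quasi-likelihood F-test of edgeR, adjusted after Benjamini and Hochberg, but so did 81.9% of the 17090 genes tested. The largest difference was that of *VDR*, 9.56-fold higher in T-47D (log2 difference 3.26 ± 0.11 SE, adjusted p = 3.413e-16). *FKBP5* was 2.85-fold higher in T-47D (log2 difference 1.51 ± 0.07 SE, adjusted p = 2.04e-14) and *FKBP4* 1.37-fold higher (adjusted p = 2.779e-08).

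The other 4 genes were higher in Ishikawa. *NR3C2* was 2.38-fold higher there (adjusted p = 2.337e-09), *PPID* 1.77-fold (adjusted p = 8.255e-09), *PTGES3* 1.43-fold (adjusted p = 7.858e-07) and *NR3C1* 1.36-fold (adjusted p = 4.056e-05), all by the same test. Culture and handling of a line cannot be told apart from the line.

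The genome around the members was searched for receptor motifs, since E2 acts through the estrogen receptor and *FKBP5* is a glucocorticoid receptor target. Windows of 10 kb on either side of the annotated start of each gene's canonical transcript (GENCODE on GRCh37/hg19) were read on both strands. The full estrogen response element GGTCANNNTGACC was in 0 of 7 windows, against 1.8% of the windows of all 22494 annotated genes in the tables. With 1 base free, as GGNCANNNTGACC, it was in the windows of *FKBP4* and *VDR*, against 15.9% of all windows. This relaxed form was chosen with the members' values known, so its matches are a description only, and a link to the changes after E2 was not tested.

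The half-sites of a glucocorticoid response element, GNACANNNTGTNC, were in the windows of *FKBP5*, *NR3C2* and *VDR*, against 23.1% of all windows. Matches are printed with 8 bases on either side, on the strand of the gene, and with the motif in capitals. The glucocorticoid match of *VDR* is not printed. Negative positions lie before the start. A match is a description of letters and not of binding, and no match says only that these letters are not in the window.
FKBP4, estrogen motif with 1 free base, chr12:2905219-2905231 (hg19, + strand), 1089 bases from the start: tgcggggaGGGCATCTTGACCtgggccag
VDR, estrogen motif with 1 free base, chr12:48302001-48302013 (hg19, − strand), -3230 bases from the start: actcacagGGACAAAGTGACCcactctag
FKBP5, glucocorticoid motif, chr6:35655535-35655547 (hg19, − strand), 1151 bases from the start: gtggttcaGGACAGTGTGTTCagcgtttg
NR3C2, glucocorticoid motif, chr4:149364949-149364961 (hg19, − strand), -1389 bases from the start: gcctttggGCACAGGGTGTCCcccggtcc

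After E2, *FKBP4* rose in both lines and most in T-47D, *NR3C2* fell in both, and *NR3C1* fell in T-47D. *VDR* rose in Ishikawa and fell in T-47D, by 0.25 on the log2 scale after 8 h. For *FKBP5*, *PTGES3* and *PPID*, the changes from 0 h that passed the test below were rises of at most 0.34. That greatest rise was of *PTGES3* in Ishikawa after 8 h, beside 0.36 for *FKBP4*. In Ishikawa cells 1 of the 7 genes passed an adjusted p of 0.05 against 0 h after 2 h, 5 passed after 4 h and 6 after 8 h, by edgeR's quasi-likelihood F-test over all genes. The same test called 4.35%, 14.3% and 22.1% of all genes at these times. In T-47D cells 2 of the 7 passed after 2 h, 5 after 4 h and 6 after 8 h, beside 9.3%, 21.5% and 29.7% of all genes. Changes are given below as log2 fold changes against 0 h of the same line, with SE, adjusted p values are from this test, and the median log2 change over all genes lay within 0.01 of 0 in all 6 comparisons. With 2 libraries a group, ranges that do not overlap are common: the libraries of 2, 4 and 8 h lay clear of both 0-h libraries for 49.4%, 54.8% and 60.6% of all genes tested in Ishikawa and for 52.8%, 59.7% and 60.1% in T-47D. Statements on overlap below describe the values and are no test.

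**Figure D2:**
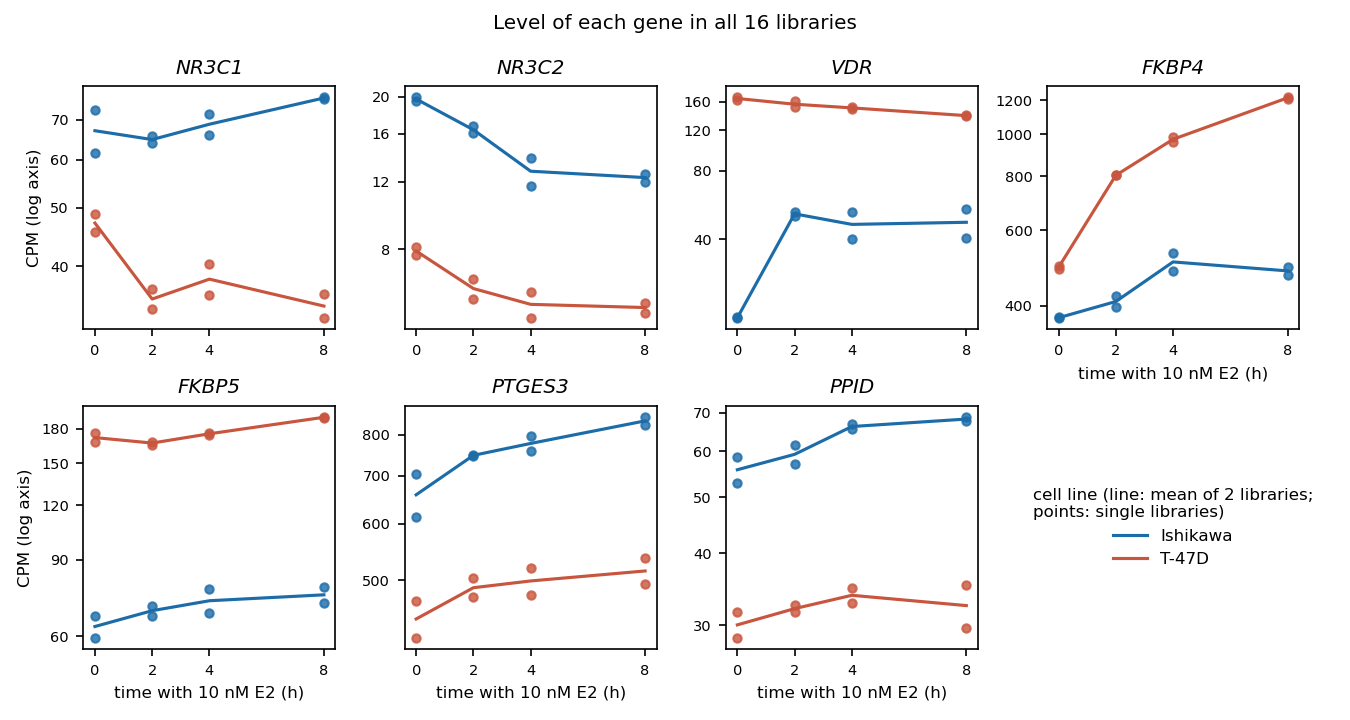
CPM of the 7 genes (log axes, which differ between panels) against hours with 10 nM E2, with 1 point per library and lines through the mean of the 2 libraries of each group. *FKBP4* climbed in T-47D from 492 to 1216 CPM and *VDR* stepped up in Ishikawa from 18.2 to 51.8 CPM by 2 h.

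**Figure D3:**
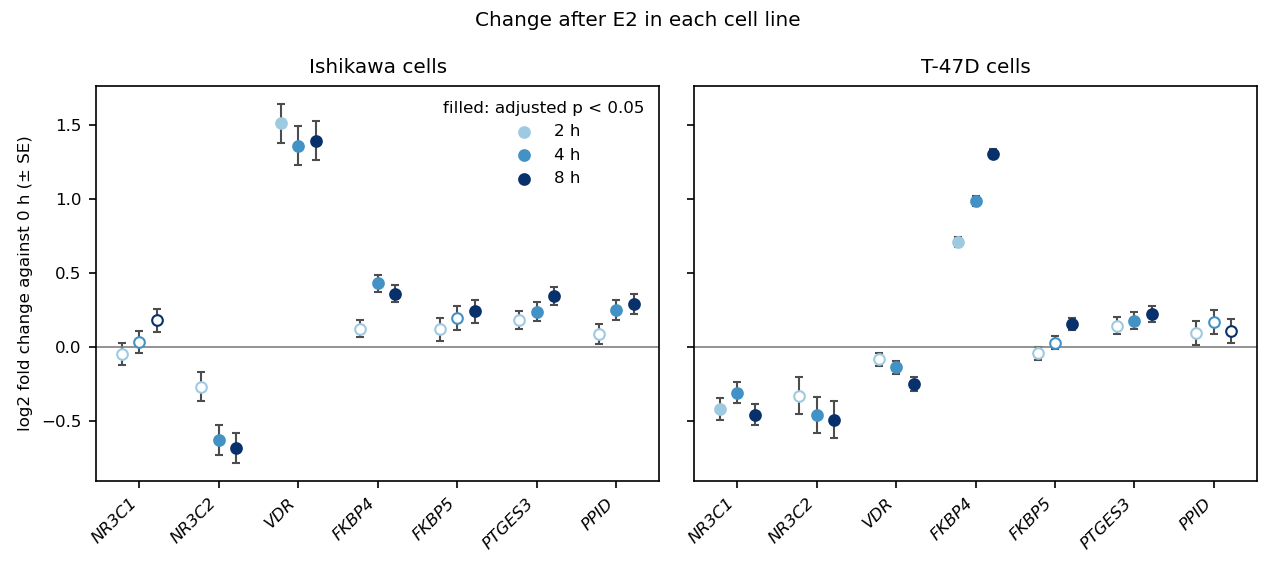
Log2 fold change against 0 h at 2, 4 and 8 h for each gene, in Ishikawa cells and T-47D cells, with bars of ± SE and filled points where the adjusted p was under 0.05. *VDR* in Ishikawa (1.51, 1.36 and 1.39) and *FKBP4* in T-47D (0.71, 0.99 and 1.31) stand apart from the other genes.

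*VDR* (chr12:48235320-48336831, hg19, − strand), the nuclear receptor for 1,25-dihydroxyvitamin D, changed in opposite directions in the 2 lines. Among *NR3C1*, *NR3C2* and *VDR*, the change of *VDR* was the greatest in Ishikawa and the smallest in T-47D at every time. In Ishikawa cells its level was 18.1 and 18.2 CPM at 0 h, 52.8 and 50.8 after 2 h, 40.3 and 52.9 after 4 h, and 54.6 and 40.6 after 8 h. All 6 libraries with E2 lay above both 0-h libraries, and the later libraries spread from the 2-h level down to about 40 CPM. The change was 1.51 ± 0.13 after 2 h (2.85-fold, adjusted p = 1.823e-06), 1.36 ± 0.13 after 4 h (adjusted p = 4.644e-06) and 1.39 ± 0.13 after 8 h (2.63-fold, adjusted p = 3.358e-06). Among the 412 genes called higher after 2 h it ranked 67 by size.

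No further change of *VDR* in Ishikawa passed the test after 2 h, with a log2 difference of -0.12 ± 0.12 between 8 and 2 h (adjusted p = 0.697). The first 4-h and second 8-h libraries were alike at 40.3 and 40.6 CPM, as were the second 4-h and first 8-h libraries at 52.9 and 54.6 CPM. Taken as 1 group against 0 h, the 4-h and 8-h libraries gave a log2 change of 1.38. The other members pooled in the same way had log2 changes of -0.65 for *NR3C2*, 0.40 for *FKBP4*, 0.29 for *PTGES3*, 0.27 for *PPID*, 0.22 for *FKBP5* (adjusted p = 0.0244) and 0.11 for *NR3C1* (adjusted p = 0.274).

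In T-47D cells *VDR* started at 168 and 163 CPM, stood at 152 and 161 after 2 h and at 149 and 152 after 4 h, and ended at 140 and 138 after 8 h. No library with E2 reached the 0-h libraries, and the lowest were those after 8 h. This was a log2 change of -0.08 ± 0.05 after 2 h (adjusted p = 0.297), -0.14 ± 0.05 after 4 h (adjusted p = 0.0375) and -0.25 ± 0.05 after 8 h (adjusted p = 0.000388). The 4-h call was lost without any 1 of the 4 libraries compared, at log2 changes of -0.15 to -0.11.

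The responses of *VDR* differed between the lines by the interaction test of the 16-library model. The log2 change in T-47D minus that in Ishikawa was -1.58 ± 0.15 after 2 h (adjusted p = 7.579e-07), -1.48 ± 0.15 after 4 h (adjusted p = 1.146e-06) and -1.65 ± 0.15 after 8 h (adjusted p = 2.215e-07). The highest Ishikawa library with E2, at 54.6 CPM, still lay under the lowest T-47D library at 138 CPM. A long noncoding RNA of the opposite strand overlaps *VDR* exons, and whether counting used strand is not given in the sources used here.

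*NR3C1* (chr5:142657496-142815077, hg19, − strand) encodes the glucocorticoid receptor, which is bound by cortisol. In T-47D cells it stood at 48.7 and 45.6 CPM at 0 h, 36.6 and 34.0 after 2 h, 40.3 and 35.8 after 4 h, and 32.8 and 35.9 after 8 h. Every library with E2 lay below both 0-h libraries. On the log2 scale the change was -0.42 ± 0.07 after 2 h (adjusted p = 0.00055), -0.31 ± 0.07 after 4 h (adjusted p = 0.00393) and -0.46 ± 0.07 after 8 h (0.728 of the 0-h level, adjusted p = 7.865e-05). Without the second 4-h library the 4-h change was -0.23 with an adjusted p of 0.0745.

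In Ishikawa cells *NR3C1* stood at 72.5 and 61.7 CPM at 0 h, 64.0 and 65.8 after 2 h, 71.7 and 65.9 after 4 h, and 75.8 and 76.3 after 8 h. The 0-h libraries spread over the range of the 2-h and 4-h libraries, and only the 8-h libraries lay above both. No time passed the test, with a log2 change of 0.18 ± 0.08 after 8 h (adjusted p = 0.101). Without the first 0-h library, the higher of the pair, the 8-h change was 0.30 with an adjusted p of 0.00704.

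The lines differed in the *NR3C1* response after 8 h, where T-47D minus Ishikawa was -0.64 ± 0.11 on the log2 scale (adjusted p = 0.000692, interaction test). The differences of -0.35 after 2 h (adjusted p = 0.144) and -0.33 after 4 h (adjusted p = 0.0977) did not pass. DESeq2 put both of these past the threshold (adjusted p = 0.0448 and 0.0264).

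*NR3C2* (chr4:148999913-149365850, hg19, − strand) encodes the mineralocorticoid receptor, which binds aldosterone and also cortisol. In Ishikawa cells it stood at 19.9 and 19.5 CPM at 0 h, 16.7 and 16.04 after 2 h, 13.9 and 11.7 after 4 h, and 12 and 12.6 after 8 h. The 2-h libraries lay between those of 0 h and those of the later times, with no overlap on either side. Its log2 change was -0.27 ± 0.10 after 2 h (adjusted p = 0.172), -0.63 ± 0.10 after 4 h (adjusted p = 0.000702) and -0.68 ± 0.10 after 8 h (0.623 of the 0-h level, adjusted p = 0.000274).

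*NR3C2* was scarcer in T-47D, with 273 to 398 counts per library. Its level was 8.10 and 7.71 CPM at 0 h, 5.93 and 6.69 after 2 h, 6.20 and 5.28 after 4 h, and 5.46 and 5.79 after 8 h. All libraries with E2 lay below both 0-h libraries. Against 0 h, the log2 change was -0.33 ± 0.13 after 2 h (adjusted p = 0.119), -0.46 ± 0.12 after 4 h (adjusted p = 0.0127) and -0.49 ± 0.13 after 8 h (adjusted p = 0.00628).

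The 4-h call of *NR3C2* in T-47D was lost without the first 0-h library (adjusted p = 0.0634) or the second 4-h library (adjusted p = 0.146). The difference between the lines was -0.04 ± 0.16 after 2 h, 0.18 ± 0.16 after 4 h and 0.19 ± 0.16 after 8 h on the log2 scale, and none passed the interaction test.

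*FKBP4* (chr12:2904136-2914589, hg19, + strand), which encodes FKBP52, had the greatest change of the cochaperones in T-47D at every time. In Ishikawa the log2 change of *PTGES3* was greater after 2 h (0.18 against 0.12, neither called) and close to it after 8 h (0.34 against 0.36). In T-47D cells *FKBP4* stood at 496 and 487 CPM at 0 h, 804 in both libraries after 2 h, 961 and 987 after 4 h, and 1221 and 1211 after 8 h. The libraries of each time lay above all libraries of the time before. This was a log2 change of 0.71 ± 0.03 after 2 h (adjusted p = 3.695e-11), 0.99 ± 0.03 after 4 h (adjusted p = 3.599e-13) and 1.31 ± 0.03 after 8 h (2.47-fold, adjusted p = 1.07e-14). By p-value it ranked 29 of 15594 genes after 2 h, 11 after 4 h and 4 after 8 h, and by size it ranked 167 among the 2404 genes called higher after 8 h.

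In Ishikawa cells *FKBP4* stood at 376 and 375 CPM at 0 h, 421 and 398 after 2 h, 529.5 and 483 after 4 h, and 473 and 492 after 8 h. All libraries with E2 lay above both 0-h libraries, and the 4-h and 8-h libraries overlapped. On the log2 scale the change was 0.12 ± 0.06 after 2 h (adjusted p = 0.293), 0.43 ± 0.06 after 4 h (adjusted p = 0.000133) and 0.36 ± 0.06 after 8 h (1.28-fold, adjusted p = 0.000527).

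The rise of *FKBP4* was greater in T-47D at every time by the interaction test. The difference was 0.60 ± 0.07 after 2 h (adjusted p = 6.803e-06), 0.57 ± 0.07 after 4 h (adjusted p = 1.073e-05) and 0.94 ± 0.07 after 8 h (adjusted p = 1.115e-08) on the log2 scale. The calls on *FKBP4* in T-47D and on *VDR* in Ishikawa held without each library of the comparison in turn. Noncoding RNAs of the opposite strand overlap *FKBP4* exons, and the annotation lists 5 *FKBP4* pseudogenes. Their share of the counts was not tested.

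*FKBP5* (chr6:35541362-35696360, hg19, − strand), which encodes FKBP51, moved by at most 0.24 from 0 h on the log2 scale. In T-47D cells it stood at 176 and 168 CPM at 0 h, 166 and 168 after 2 h, 176 and 174 after 4 h, and 192 and 191 after 8 h. The range of the 0-h libraries overlapped those of 2 h and 4 h, and the 8-h libraries lay above all of them. Its log2 change was -0.04 ± 0.04 after 2 h (adjusted p = 0.616), 0.03 ± 0.04 after 4 h (adjusted p = 0.684) and 0.15 ± 0.04 after 8 h (adjusted p = 0.00992). Without the second 0-h library the 8-h value was 0.13 with an adjusted p of 0.104.

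In Ishikawa cells *FKBP5* stood at 66.9 and 59.4 CPM at 0 h, 70.5 and 66.9 after 2 h, 77.0 and 67.9 after 4 h, and 71.5 and 77.9 after 8 h. The 4-h and 8-h libraries lay above both 0-h libraries. At 8 h the log2 change was 0.24 ± 0.08 (adjusted p = 0.0374), and after 4 h it was 0.20 ± 0.08 (adjusted p = 0.107). The 8-h call was lost without the second 0-h library (adjusted p = 0.285) or the second 8-h library (adjusted p = 0.256). No time differed between the lines, with T-47D minus Ishikawa at -0.15 ± 0.09, -0.16 ± 0.09 and -0.09 ± 0.09 on the log2 scale.

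The balance between the FKBP pair therefore shifted mostly in T-47D, which is a description of the values above. The ratio of *FKBP4* to *FKBP5*, both in CPM per kilobase, was 5.81 and 5.97 in the 0-h libraries of T-47D. It was 9.99 and 9.83 after 2 h, 11.2 and 11.7 after 4 h and 13.1 in both libraries after 8 h. In Ishikawa cells the ratio was 11.6 and 13.0 at 0 h and 13.6 and 13.0 after 8 h, with 14.2 and 14.6 after 4 h. The ratio in T-47D after 8 h thus fell within the range of the Ishikawa libraries, and at 0 h it lay below all of them.

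*PTGES3* (chr12:57057125-57082192, hg19, − strand), which encodes p23, rose slightly in both lines. In Ishikawa cells it stood at 705 and 612 CPM at 0 h, 749 and 748 after 2 h, 795 and 760 after 4 h, and 825 and 847 after 8 h. All libraries with E2 lay above both 0-h libraries, which themselves lay far apart. Against 0 h, the log2 change was 0.18 ± 0.06 after 2 h (adjusted p = 0.126), 0.24 ± 0.06 after 4 h (adjusted p = 0.018) and 0.34 ± 0.06 after 8 h (adjusted p = 0.00131). The 4-h call was lost without the second 0-h library (adjusted p = 0.151) or the first 4-h library (adjusted p = 0.142).

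In T-47D cells *PTGES3* stood at 467 and 415 CPM at 0 h, 503 and 473 after 2 h, 521 and 477 after 4 h, and 494 and 536 after 8 h. The libraries with E2 lay above both 0-h libraries. This was a log2 change of 0.15 ± 0.06 after 2 h (adjusted p = 0.126), 0.18 ± 0.06 after 4 h (adjusted p = 0.0326) and 0.22 ± 0.06 after 8 h (adjusted p = 0.00578). The 2-h change passed with edgeR without a low-count filter (0.16, adjusted p = 0.00257). It also passed when only the times compared were fitted (0.16, adjusted p = 0.0361). The 8-h call was lost without the second 0-h library (adjusted p = 0.0816) or the second 8-h library (adjusted p = 0.0638). The 4-h call was lost without the second 0-h library (adjusted p = 0.298) or the first 4-h library (adjusted p = 0.28) and with DESeq2 (adjusted p = 0.144). The annotation lists 5 *PTGES3* pseudogenes, and the lines did not differ in the response by the interaction test, at -0.12 ± 0.10 on the log2 scale after 8 h.

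*PPID* (chr4:159630279-159644548, hg19, − strand) encodes Cyp40, a peptidyl-prolyl isomerase. In Ishikawa cells it stood at 58.6 and 53.0 CPM at 0 h, 57.0 and 61.6 after 2 h, 67.0 and 65.5 after 4 h, and 68.9 and 67.7 after 8 h. The 2-h libraries overlapped those of 0 h and the later ones lay above both. On the log2 scale the change was 0.09 ± 0.07 after 2 h (adjusted p = 0.561), 0.25 ± 0.07 after 4 h (adjusted p = 0.025) and 0.29 ± 0.07 after 8 h (adjusted p = 0.007). Without the second 0-h library the changes after 4 h and 8 h were 0.18 (adjusted p = 0.157) and 0.22 (adjusted p = 0.0667). The 4-h call was also lost without the first 4-h library (adjusted p = 0.165) or the second (adjusted p = 0.0571).

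In T-47D cells *PPID* stood at 31.6 and 28.5 CPM at 0 h, 31.7 and 32.5 after 2 h, 34.8 and 32.9 after 4 h, and 29.6 and 35.3 after 8 h. The range of the 8-h libraries overlapped that of 0 h, and no time passed the test (log2 changes of 0.09, 0.17 and 0.11). *ETFDH*, which encodes a mitochondrial electron carrier, lies on the opposite strand with exons that overlap those of *PPID*. *ETFDH* stood between 16.3 and 19.4 CPM in Ishikawa and between 37.1 and 40.0 CPM in T-47D, the reverse of the order of *PPID* in the lines. The difference in response between the lines was -0.18 ± 0.11 on the log2 scale after 8 h (adjusted p = 0.363).

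Of the 7 genes, the interaction test separated the lines for *VDR* and *FKBP4* after 2 h and 4 h, and for these and *NR3C1* after 8 h. That is 2, 2 and 3 of 7, beside 2.67%, 6.03% and 10% of the 17090 genes tested.

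Between E2 time points, *FKBP4* in T-47D was the member that kept rising. Its log2 change was 0.28 ± 0.03 from 2 to 4 h (adjusted p = 5.447e-05) and 0.32 ± 0.03 from 4 to 8 h (adjusted p = 2.271e-05). It was the 1 of 7 genes called in each of these comparisons, beside 3.4% and 3.42% of all genes. From 2 to 8 h, *FKBP4* (0.60), *FKBP5* (0.20 ± 0.04, adjusted p = 0.00347) and *VDR* (-0.17 ± 0.05, adjusted p = 0.0174) were called in T-47D, 3 of 7 beside 16.8% of all genes.

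In Ishikawa cells *FKBP4* was the 1 of 7 genes called from 2 to 4 h (0.31 ± 0.06, adjusted p = 0.0102), beside 2.39% of all genes. From 2 to 8 h, *FKBP4* (0.24) and *NR3C2* (-0.41) were called, both with an adjusted p of 0.046, beside 2.24% of all genes. From 4 to 8 h 0 of 7 genes were called by edgeR, beside 0.0127% of all genes, which were 2 of 15787, and 554 genes, 0 of them members, had an unadjusted p under 0.05.

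The HSP90 and HSP70 machinery that loads receptors was a list of 21 genes, all tested in both lines, of which 12 rose in each line after 8 h. In Ishikawa cells 0 of 21 rose after 2 h, 12 after 4 h and 12 after 8 h, and in T-47D cells 4, 12 and 12 rose, with 0 falling in any of the 6 comparisons by edgeR. At an unadjusted p under 0.05, 2 rose in Ishikawa after 2 h, and 1 gene fell in T-47D after 4 h and 0 in the other 5 comparisons. Of all genes, 2.61%, 7.66% and 12% rose in Ishikawa and 4.9%, 11.1% and 15.4% in T-47D at these times. Shares of all genes, here and for the members, were not matched for level. *HSPA8*, for example, averaged 2079 CPM at 0 h in Ishikawa and 3994 in T-47D. The medians over all genes tested were 22.3 and 20.7 CPM. No test of the list as a whole was run. The median log2 change of the list after 8 h was 0.231 in Ishikawa and 0.245 in T-47D, against -0.009 and 0.003 over all genes tested. All the list's changes after 8 h lay under that of *FKBP4* in T-47D (1.31).

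Within the list, *HSPA8*, the constitutive HSP70 that first meets new receptor chains, stood in T-47D at 3969 and 4020 CPM at 0 h, then at 5707 and 5828 after 8 h, a log2 change of 0.53 ± 0.03 (adjusted p = 3.241e-11). In Ishikawa *HSPA8* changed by 0.44 ± 0.07 after 8 h (adjusted p = 0.000312), and the lines did not differ by the interaction test (adjusted p = 0.602). *HSPH1*, a nucleotide exchange factor of HSP70, changed by 0.53 in T-47D (adjusted p = 5.281e-07) and 0.28 in Ishikawa (adjusted p = 0.0245). *HSP90AA1*, the inducible HSP90, changed by 0.24 in T-47D and 0.26 in Ishikawa, and *HSP90AB1*, the constitutive form, by 0.32 and 0.21, all 4 past the threshold.

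Other genes of the list that led it by size after 8 h were *DNAJA1* (0.38), an HSP40 cochaperone, and *AHSA1* (0.36), which speeds the HSP90 ATPase, in T-47D, and *CHORDC1* (0.36), an HSP90 cochaperone, in Ishikawa. *DNAJB1*, another HSP40, was called in Ishikawa (0.23) and stood at -0.07 in T-47D, and the lines differed by -0.31 ± 0.06 (adjusted p = 0.00317). *HSPA1A* and *HSPA1B* are near-identical copies, so their separate values are uncertain.

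**Figure D4:**
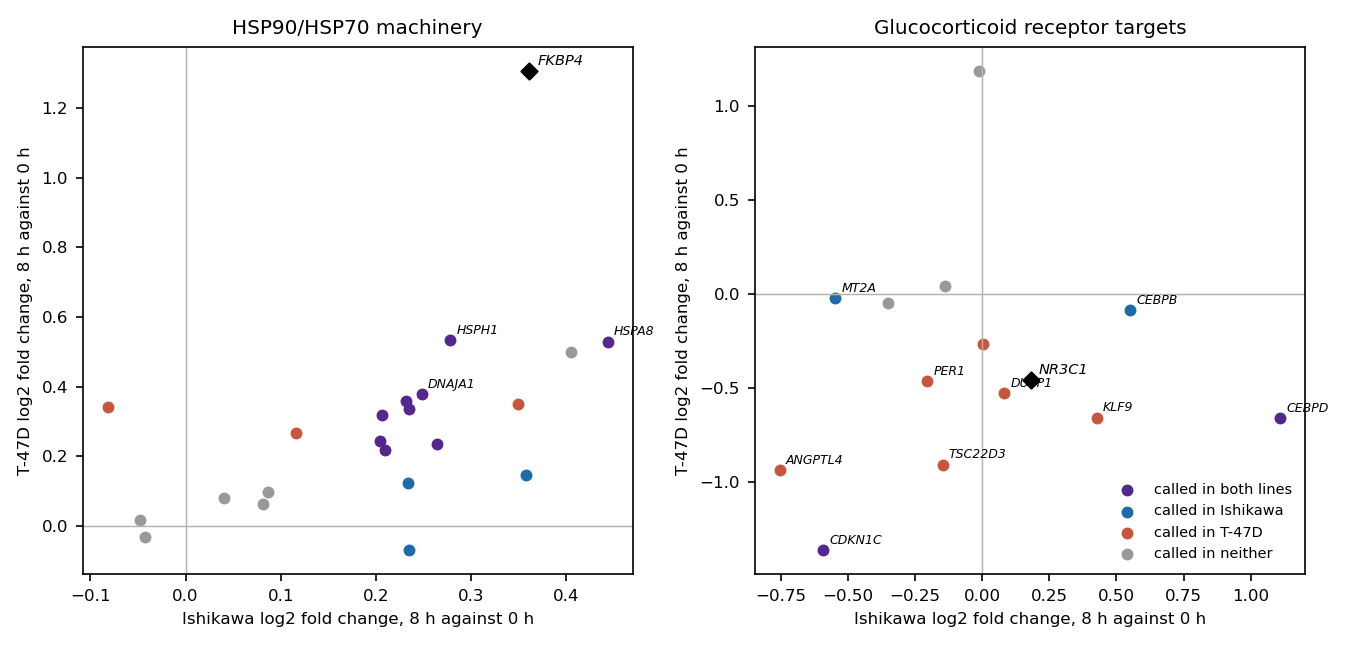
Log2 fold change after 8 h against 0 h in Ishikawa (x axis) and T-47D (y axis) for the HSP90 and HSP70 machinery and for glucocorticoid receptor target genes tested in both lines, colored by the lines in which a gene was called, with *FKBP4* or *NR3C1* as a black diamond. *FKBP4* lies above the whole chaperone list on the T-47D axis at 1.31, whereas *CEBPD* lies far to the right and below 0 (1.11 and -0.66). Genes with a log2 change beyond 0.37 in a line and a call are named.

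Few other immunophilins passed the test after 8 h, at a share no higher than that of all genes. Of 25 genes of this list 23 were tested in each line, and 3 rose and 0 fell in Ishikawa after 8 h by edgeR (3 and 2 at an unadjusted p under 0.05), whereas 2 rose and 2 fell in T-47D, beside 22.1% and 29.7% of all genes called in either direction. The list's median log2 change was 0.027 in Ishikawa and 0.008 in T-47D. *PPIF*, the mitochondrial cyclophilin D, rose in both lines after 8 h (0.38, adjusted p = 0.00116 in Ishikawa, and 0.53, adjusted p = 2.459e-07 in T-47D), and so did *PPIL1*, a spliceosomal cyclophilin (0.27 and 0.25). *FKBP14*, an isomerase of the endoplasmic reticulum, rose in Ishikawa (0.26), and *FKBP2* (-0.25) and *TTC9* (-0.27) fell in T-47D.

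Among glucocorticoid receptor target genes, calls in T-47D were mostly falls, and calls in Ishikawa went both ways. Of 14 genes on the list, all tested in T-47D, 5 fell and 1 rose after 2 h, 7 fell and 1 rose after 4 h, and 8 fell and 1 rose after 8 h. Of the 13 tested in Ishikawa, 3 rose after 2 h, 2 rose and 1 fell after 4 h, and 2 rose and 2 fell after 8 h. Of all genes, 4.4%, 10.4% and 14.3% fell in T-47D and 1.74%, 6.6% and 10.1% in Ishikawa after 2, 4 and 8 h, and this list too was not tested as a whole. The list's median after 8 h was -0.365 in T-47D and -0.138 in Ishikawa. Several of these genes have other regulators, and no glucocorticoid was named among the additions.

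*TSC22D3*, which encodes the glucocorticoid-induced leucine zipper GILZ, stood in T-47D at 21.9 and 21.3 CPM at 0 h, 16.4 and 16.1 after 2 h, 12.7 and 11.5 after 4 h, and 11.6 and 11.4 after 8 h. The 4-h and 8-h libraries lay below those of 2 h, which lay below those of 0 h. The log2 change of *TSC22D3* after 8 h was -0.91 ± 0.08 in T-47D (adjusted p = 2.3e-07) and -0.15 ± 0.08 in Ishikawa (adjusted p = 0.186), a difference between the lines of -0.77 ± 0.11 (adjusted p = 9.059e-05). *ANGPTL4*, a lipoprotein lipase inhibitor, changed by -0.94 in T-47D (adjusted p = 7.864e-08).

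*CEBPD*, a bZIP transcription factor gene, changed in opposite directions. It stood in Ishikawa at 9.47 and 9.60 CPM at 0 h, then at 19.6 and 21.6 after 8 h (log2 change 1.11 ± 0.10, adjusted p = 3.196e-06), and in T-47D at 15.7 and 16.1 CPM at 0 h, then at 10.1 and 9.91 after 8 h (-0.66 ± 0.09, adjusted p = 3.453e-05). The difference of the *CEBPD* responses was -1.77 ± 0.14 (adjusted p = 4.52e-08).

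*KLF9*, a Krüppel-like factor gene, rose in Ishikawa from 4.02 and 3.82 CPM at 0 h to 9.09 and 9.02 after 2 h (log2 change 1.21 ± 0.16, adjusted p = 0.00018). It stood at 3.92 and 5.31 after 4 h (adjusted p = 0.377). The 8-h libraries, at 4.91 and 5.60 CPM, lay above both 0-h libraries, but the gene was not called then. In T-47D *KLF9* fell by 0.66 on the log2 scale after 8 h (adjusted p = 0.000167). The 1 gene of the list that rose in T-47D was *ZBTB16*, named here after its values were seen, with at most 64 counts in any library. *CEBPB* (0.55) rose in Ishikawa after 8 h, and *CDKN1C* (-0.59) and *MT2A* (-0.55) fell.

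In the mineralocorticoid receptor pathway, *HSD11B2* rose in Ishikawa. *HSD11B2* encodes the dehydrogenase that inactivates cortisol and so leaves the mineralocorticoid receptor open to aldosterone. It stood at 2.04 and 2.45 CPM at 0 h, 4.94 and 5.98 after 2 h, 6.92 and 8.72 after 4 h, and 8.27 and 7.17 after 8 h, so that all libraries with E2 lay above both of 0 h. The log2 change of *HSD11B2* after 8 h was 1.78 ± 0.18 (adjusted p = 6.573e-06) in Ishikawa and 0.32 ± 0.19 (adjusted p = 0.24) in T-47D, a difference of -1.47 ± 0.28 (adjusted p = 0.00138).

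It was the 1 gene called among the 6 of 9 tested in Ishikawa after 8 h. In T-47D 8 were tested, of which 1 rose and 3 fell after 8 h. All genes were called in shares of 22.1% in Ishikawa and 29.7% in T-47D at that time, and the Ishikawa count is near its share. *NEDD4L* (-0.36), a ubiquitin ligase of the epithelial sodium channel, and *SCNN1A* (-0.31), the α subunit of that channel, were among those that fell, and *ATP1B1* (0.28), the β subunit of the sodium pump, rose.

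In the vitamin D receptor pathway few genes were expressed, with 6 of 15 tested in each line. *CYP24A1*, which encodes the 24-hydroxylase and is the best-known target gene of the receptor, had 0 counts in all 8 Ishikawa libraries and 0 to 10 counts in the T-47D libraries, so that no change could be tested at this depth. In T-47D *RXRA*, a dimer partner of the vitamin D receptor, stood at 269 and 278 CPM at 0 h, then at 195 and 191 after 8 h, a log2 change of -0.50 ± 0.04 (adjusted p = 6.724e-08). *RXRA* changed by -0.15 ± 0.06 in Ishikawa (adjusted p = 0.0767), and the lines differed by -0.36 ± 0.07 (adjusted p = 0.0013).

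Of the same list, 2 genes fell in Ishikawa after 8 h, *TRPV6* (-0.60), a calcium channel gene, and *RXRB* (-1.12), whose 0-h libraries stood as far apart as 9.38 and 4.74 CPM. In T-47D 1 rose, *CYP2R1* (0.37), a vitamin D 25-hydroxylase gene, and 1 fell. These counts are near the 22.1% and 29.7% of all genes called. The list's median log2 change was -0.218 in Ishikawa and -0.115 in T-47D.

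Genes of other steroid receptors also responded to E2. *PGR* rose in both after 8 h, by 3.75 on the log2 scale from about 1 CPM in Ishikawa and by 1.09 in T-47D. *ESR1* fell by 0.45 in Ishikawa and rose by 0.29 in T-47D. *ESR2*, the second estrogen receptor gene, did not exceed 1.25 CPM in any library and passed no test after 8 h.

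For each member the genes with the most similar course were found by Pearson's r over 16 libraries after removal of each line's mean, among 14307 genes tested in both lines. The libraries share time points and lines, so r is a description. Among the closest to *FKBP4* were *EPS15L1* (r = 0.99), *GEMIN4* (0.982) and *SNHG15* (0.979), and among the closest to *VDR* were *ITSN2* (0.985) and *SYNJ2* (0.966). *PTGES3* was followed most closely by *SERP1* (0.984), *CNIH1* (0.981) and *SELT* (0.976).

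Among the nearest to *NR3C2* were *RBM47* (0.949), *PCED1B* (0.942) and *AIM1L* (0.938), to *PPID* *CPSF2* (0.946), *RAB11FIP2* and *CDC27* (both 0.938), to *FKBP5* *PDCD5* (0.945) and *UAP1* (0.912), and to *NR3C1* *ZNF281* (0.908), *BACH1* (0.893) and *ZFAND5* (0.892). Among the members themselves, by the same measure, *PTGES3* and *PPID* were the closest pair (r = 0.87), followed by *FKBP5* and *PTGES3* (0.78), and *NR3C2* ran opposite to *FKBP4* (-0.75) and *PTGES3* (-0.74).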

How the data were processed

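Poly(A) RNA from 16 samples of hormone-deprived Ishikawa and T-47D cells was sequenced by the authors, who deposited a table of raw gene counts for each line. Per the submitters' processing notes and methods, reads were aligned to hg19 with HISAT2, handled with SAMtools, assigned to UCSC Known Genes by featureCounts and tested with DESeq2. Versions and the strand, mate and multimapping settings are not given in the sources used here. Between 71.2% and 74.6% of the counts from 1 to 10 in a library were even, so read mates may have been counted singly, and counts are then not independent fragments.

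Each line's 8 libraries were fitted with edgeR 4.0.16 (R 4.3.3) as a quasi-likelihood model with time as a factor, filterByExpr, TMM scaling and Benjamini-Hochberg adjustment over all genes tested, with a threshold of 0.05. SE is the absolute log2 change divided by the square root of the F statistic. Differences between lines came from 1 model of the 16 libraries, as the interaction of line and time. Variation between libraries beyond counting noise (coefficient of variation from edgeR's common dispersion) was estimated at 6.45% in Ishikawa and 5.02% in T-47D. CPM use TMM-scaled totals. Levels per kilobase use the joint scaling of 16 libraries and the exon union of GENCODE (GRCh37), which matched 22494 symbols (85.3%). The script was tested on simulated data.

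Replicate numbers did not pair the libraries (correlations of deviations from -0.115 to 0.0533 in Ishikawa and from -0.0547 to 0.0595 in T-47D, over 6 pairs each). No library duplicated another. The members and gene lists were chosen with earlier results of these data known. Genes named are the 7 members, *PGR*, *ESR1* and *ESR2*, up to 4 genes per list and line with the largest change at 8 h among those called, averaging 50 counts or more, with the 8-h libraries outside the range of the 0-h libraries, and the 3 genes most correlated with each member. Further genes were named after their values were seen. Some genes that this rule names and 1 motif match are not reported here. Alternatives were DESeq2 1.42.0, scaling by RLE, no low-count filter, a minimum of 10 counts per library, a replicate block, only the time points compared, a threshold of 0.01, pooled late libraries, each library left out, and longest-transcript lengths.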

Additional observations from a re-analysis of the deposited data

Results flagged for a closer look

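The response to E2 differed between the lines for 3 of the 7 genes by the interaction test of edgeR's quasi-likelihood model. For *VDR*, the log2 change in T-47D minus that in Ishikawa was -1.58 after 2 h, -1.48 after 4 h and -1.65 after 8 h. For *FKBP4* the difference was 0.60 after 2 h, 0.57 after 4 h and 0.94 after 8 h. For *NR3C1* it was -0.64 after 8 h. No explanation of these differences was tested.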

How the results depend on the processing

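With 2 libraries per group, small changes depended on single libraries. Apart from settings that left out a library, 402 values of the members kept their direction and their side of the threshold, 10 lost a call, 6 gained one and 2 turned, both the *PPID* line difference at 2 h (-0.0042 with DESeq2 and -0.0044 with RLE scaling). Without a filter, 1162 genes and 2 members were called in Ishikawa at 2 h (*PTGES3* 0.17, adjusted p = 0.0363). At a threshold of 0.01, 392, 1076 and 1755 genes were called in Ishikawa at 2, 4 and 8 h, with 3 members at 4 h, and 901 and 1991 in T-47D at 2 and 4 h, with 2 members at 4 h. The pooled 4-h and 8-h libraries of Ishikawa called 4055 genes. With a replicate block no member's call changed and 606, 2044 and 3237 genes were called in Ishikawa and 1324, 3166 and 4495 in T-47D. *FKBP5* at 8 h lost its call in both lines when only the times compared were fitted (adjusted p = 0.0595 in Ishikawa and 0.0598 in T-47D). Leaving out each library gave 322 to 1735, 1002 to 2995 and 1409 to 4234 genes in Ishikawa, with 1 to 2, 3 to 6 and 4 to 7 members, and 816 to 1490, 1821 to 2932 and 3427 to 4486 genes in T-47D, with 2 to 3, 2 to 3 and 4 to 7 members. The line difference at 4 h then covered 658 to 1177 genes. Log2 values that turned ranged from -0.16 to 0.0752 (*NR3C1*, Ishikawa 2 h), -0.0752 to 0.16 (*NR3C1*, Ishikawa 4 h), -0.0656 to 0.0041 (*FKBP5*, T-47D 2 h) and -0.0122 to 0.23 (*PPID*, T-47D 8 h). For line differences they ranged from -0.13 to 0.0426 (*NR3C2*, 2 h), -0.16 to 0.0823 and -0.17 to 0.0511 (*PTGES3*, 2 and 4 h) and -0.0903 to 0.10 and -0.16 to 0.0132 (*PPID*, 2 and 4 h). Longest-transcript lengths moved the level per kilobase of all 7 members in both lines and kept their order. The causes were not tested.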
